A study of Mus musculus with 23 samples.

Results

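The 9 genes described here are the core of the G1 checkpoint of the cell cycle: the INK4 inhibitors Cdkn2a, Cdkn2b and Cdkn2c, the CIP/KIP inhibitor Cdkn1b, the kinases Cdk4 and Cdk6, cyclin D1 (Ccnd1), the retinoblastoma gene Rb1 and the transcription factor E2f1. They were taken by name from the 37620 Ensembl gene identifiers in the count files, through their mouse symbols, and all 9 were present. RNA sequencing counts were available for 23 libraries of melanoma tissue from mice with ultraviolet-induced tumours. Of these, 2 were lung metastases and 7 were lymph node metastases of Nme1+/-, Nme2+/- animals (HPN), 7 were primary melanomas of the same genotype, and 7 were primary melanomas of animals wild type for both genes (HP). Nme1, a metastasis suppressor in many models, and its neighbour Nme2 code for kinases that make nucleoside triphosphates. From background knowledge of this model, not from the labels, all animals of both genotypes carry an Hgf transgene and a deletion of the Ink4a part of Cdkn2a. The extent of the deletion is not given in the sources used here. Age and sex are not given either. Tests used the sum of nodes 7a and 7b, whose titles carry the same number, so that 6 node samples remained.

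In a cell that is not dividing, Rb1 protein holds E2F factors inactive. Cyclin D1 bound to Cdk4 or Cdk6 phosphorylates Rb1, E2F is released, and genes for DNA replication are switched on. INK4 proteins bind Cdk4 and Cdk6 and block this step, whereas the Cdkn1b product p27 acts mainly on the cyclin E and cyclin A kinases. Cdkn2a encodes 2 unrelated proteins from alternative first exons, the INK4 inhibitor p16Ink4a and p19Arf, which stabilises p53. Loss of CDKN2A and gain of CDK4 or CCND1 are well known in human melanoma.

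Cdkn2a and Cdkn2b lie next to each other on the minus strand of chromosome 4, at 89274471 to 89294653 and 89306299 to 89311039 of GRCm38, with 11.6 kb between them. The stretches before the 2 starts of Cdkn2a are shown because the gene-level counts add up transcripts from both, so that these counts do not separate Ink4a from Arf and check nothing about the deletion. The sequences are from RefSeq for GRCm38.p6, read 5′ to 3′ on the minus strand. The Ink4a stretch ends just before the RefSeq start. The Arf stretch ends just before the GENCODE start, which lies upstream of the RefSeq start. Capitals mark an E2F word.
Cdkn2a, Ink4a start, chr4:89282193-89282442: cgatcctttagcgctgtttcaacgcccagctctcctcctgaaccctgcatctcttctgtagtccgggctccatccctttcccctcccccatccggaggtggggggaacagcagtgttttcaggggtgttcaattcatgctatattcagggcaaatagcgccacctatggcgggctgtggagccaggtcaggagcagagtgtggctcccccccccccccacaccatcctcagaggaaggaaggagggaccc
Cdkn2a, Arf start, chr4:89294654-89294869: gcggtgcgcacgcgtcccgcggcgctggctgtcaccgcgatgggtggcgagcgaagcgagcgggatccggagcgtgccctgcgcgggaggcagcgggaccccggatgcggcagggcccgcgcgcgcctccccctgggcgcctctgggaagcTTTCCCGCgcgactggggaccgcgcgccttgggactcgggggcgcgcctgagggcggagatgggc
The words searched on both strands were TTTCCCGC, TTTCGCGC, TTTGCCGC and TTTGGCGC, forms of the site that E2F factors are known to bind. Of the 9 members, 7 had 1 or more promoters in the sequence table, 9 promoters in all. Ccnd1 and Rb1 had none there. Among the 250 bases before each RefSeq start, 1 of these 9 promoters held such a word, that of Arf. It begins 99 bases before its RefSeq start, a distance counted past the end of the printed stretch. Over all mouse promoters in the table, 611 of 32851 held such a word (1.86%). The stretches searched for E2f1, Cdk6 and Cdkn2c lie inside the genes as annotated in GENCODE. Bases before the outermost GENCODE starts of these genes were not searched. A match in letters is a description and not a binding site.

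Gene counts per library summed to 28543393 to 31213391 in lung metastases, 18870759 to 37598836 in nodes, 20418245 to 58071192 in primary tumours of HPN animals, and 25176390 to 89481553 in those of HP animals. Levels are given as CPM, counts scaled to the library total, with TMM scaling over all 23 libraries. As a check of the labels, Nme1 had a lowest, median and highest level of 5.30, 11.3 and 13.1 CPM in HPN primaries, against 7.69, 13.2 and 29.8 CPM in HP primaries, which differ by -0.69 on the log2 scale (SE 0.27, unadjusted p = 0.0242, adjusted p = 0.951, edgeR). Nme2 had 0.0698, 0.231 and 0.407 CPM in HPN primaries, against 0.313, 0.404 and 0.877 CPM in HP primaries (log2 difference -1.01, edgeR adjusted p = 0.951). Both genes were lower by median in HPN primaries, the ranges overlapped and neither passed the adjusted test. Nme2 stood at 0.877 CPM at most even in HP primaries, near the floor, so its counts are a weak check of the labels. Melanocyte markers (10 genes, such as Tyr, Pmel and Sox10) were high in every library, with summed levels of 25180 to 37220 CPM in lung metastases, 4749 to 45610 CPM in nodes, 6477 to 64620 CPM in HPN primaries and 8177 to 54380 CPM in HP primaries. Alveolar markers stood at a mean of 9.54 on the log2(CPM + 0.5) scale in lung metastasis 4 and at -0.42 in lung metastasis 3. In 8 libraries (nodes 7a, 7b and 8, HPN primary 7, HP primaries 3, 6, 7 and 9) the authors' entry for reads of low alignment quality was above 0, and in the other 15 it was 0. The strand setting of the counting is not given. On the opposite strand, Cdk4 shares 19.7% of its exonic bases with Tspan31, Ccnd1 shares 23.4% with LTO1, Rb1 shares 8.11% with Rcbtb2 and 6.78% with Lpar6, and Cdk6 shares 2.63% with Gm17590, so counts in these stretches are uncertain. For Cdkn2a, Cdkn2b, Cdkn2c, Cdkn1b and E2f1 no overlap was found.

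All 9 genes had counts in all 23 libraries. Compared per length, as median RPKM over the libraries, cyclin D1 was the most abundant member at 85.1, followed by Cdk4 at 34.5, Cdkn1b at 24.5, Cdkn2a at 20.8, Cdkn2c at 12.1, Rb1 at 12.0, Cdkn2b at 11.5, E2f1 at 6.09 and Cdk6 at 2.08. Cdk4 was thus measured at a higher level per length than Cdk6, the other D-type cyclin kinase. Levels of Cdkn1b, Rb1 and Cdk4 varied least, the highest library being 2.91, 2.97 and 3.03 times the lowest. Ccnd1 varied most, 25.0 times, followed by Cdk6 at 14.3 times and Cdkn2a at 13.7 times. Cdkn2a ran between 127 and 3814 counts per library, and the lowest level was in node 5 and the highest in HPN primary 7. Node 5 was also the lowest of all libraries for Cdkn2b, Cdkn2c, Cdk4 and E2f1, while HPN primary 7 was the highest for Cdkn2b, Cdkn1b, Ccnd1 and Rb1 and the lowest for Cdk6.

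**Figure D1:**
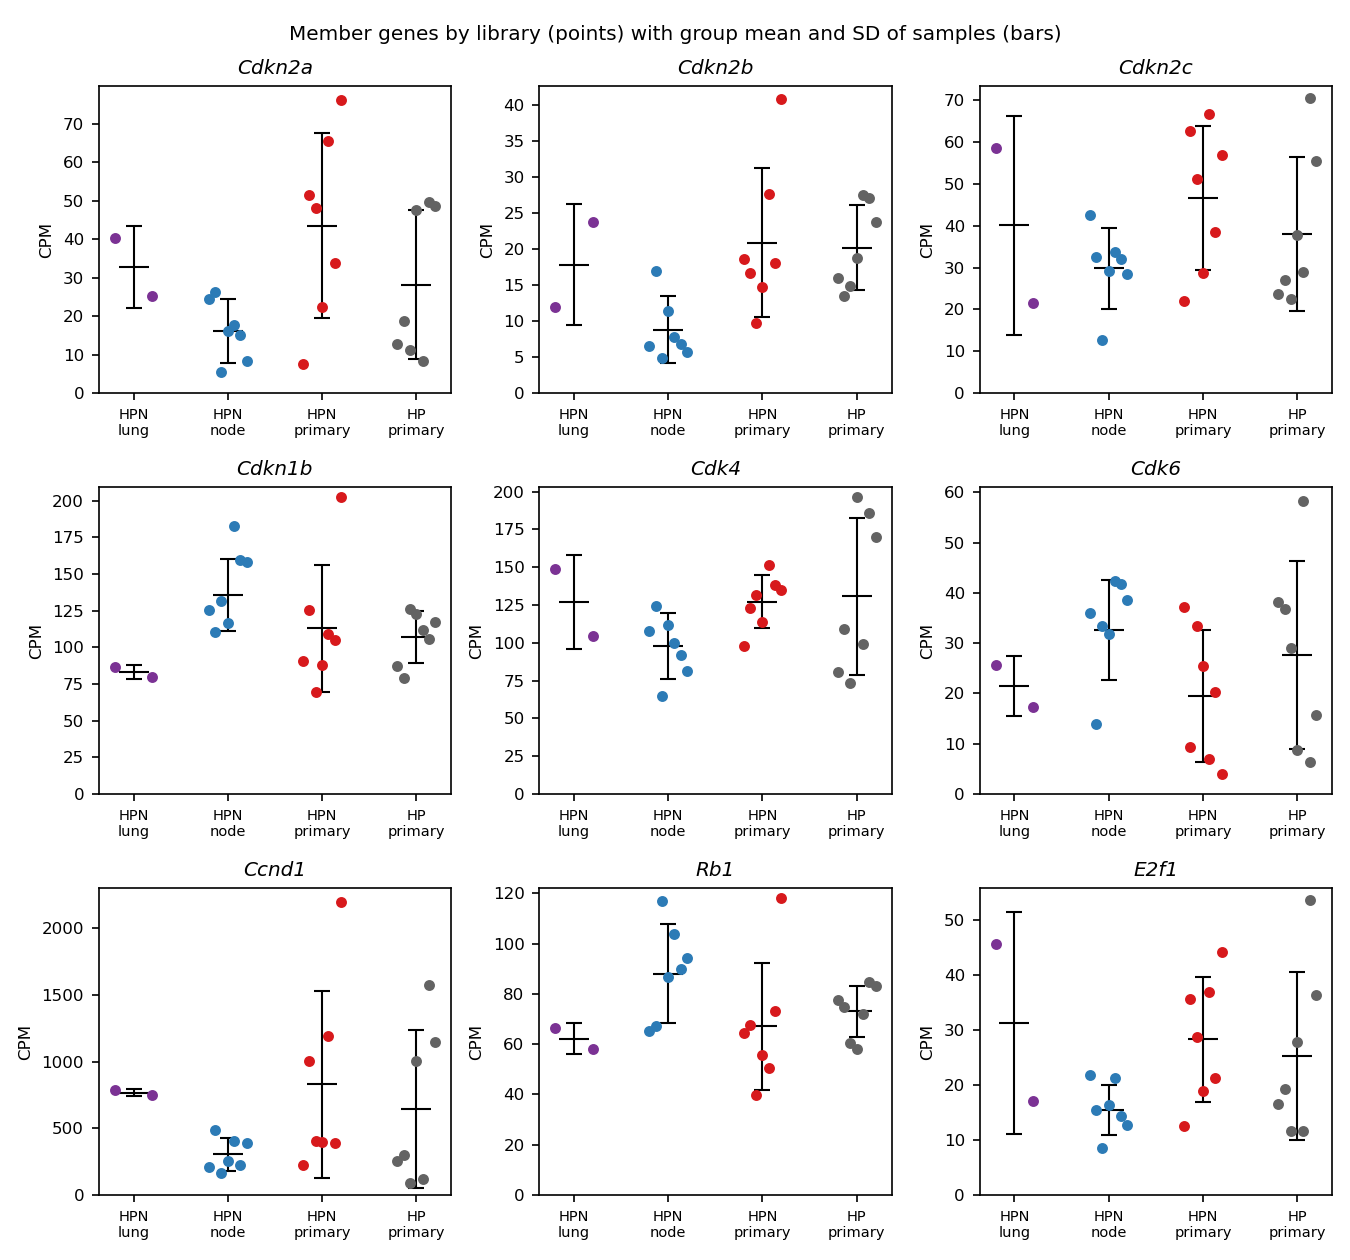
CPM (vertical axis, linear) of each of the 9 genes in lung metastases, node metastases, HPN primaries and HP primaries; points are libraries, and bars are the mean and SD over samples with nodes 7a and 7b counted once. Cdkn2a reached 26.3 CPM at most in the nodes and 76.3 CPM in the HPN primaries, and most genes spread widely within both groups of primaries.

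By group, Cdkn2a averaged 43.5 ± 24.1 CPM in HPN primaries (SD, n = 7), 32.7 ± 10.8 CPM in lung metastases (n = 2), 28.2 ± 19.4 CPM in HP primaries (n = 7) and 16.2 ± 8.30 CPM in nodes (n = 6). Each step in this order was smaller than the larger of the 2 SDs beside it. Cdkn2b averaged 20.9 ± 10.3 CPM in HPN primaries, 20.2 ± 5.89 CPM in HP primaries, 17.8 ± 8.35 CPM in lung metastases and 8.79 ± 4.61 CPM in nodes. Among these steps, only that from lung metastases to nodes was larger than both SDs.

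The comparison of primaries asks whether the mutated copies of Nme1 and Nme2 go with another level of the checkpoint genes. No member passed the test between HPN and HP primaries. Cdkn2a had a lowest, median and highest level of 7.50, 48.2 and 76.3 CPM in HPN primaries, against 8.39, 18.8 and 49.6 CPM in HP primaries. HPN primaries 2, 5 and 7 lay above every HP primary, HPN primary 1 lay below them all, and the other 3 lay inside the HP range. The log2 difference was 0.61 (SE 0.50, adjusted p = 0.951, edgeR quasi-likelihood test with Benjamini-Hochberg adjustment). Cdkn2b stood at 9.74, 18.1 and 40.8 CPM in HPN primaries and at 13.5, 18.7 and 27.5 CPM in HP primaries. Its log2 difference was 0.01 (SE 0.27, edgeR adjusted p = 0.996). For the other 7 genes the log2 difference lay between -0.54 for Cdk6 and 0.36 for Ccnd1, with edgeR adjusted p of 0.951 to 0.984. The test called 0 of 9 members and 0 of 16578 genes (0%), with 0 members and 477 genes at an unadjusted p under 0.05, and DESeq2 called 0 genes. The median log2 difference was 0.03 over the members and -0.05 over all genes tested. With the title number as a block, which does not mark a shared animal here, Cdkn2a differed by 0.75 on the log2 scale (edgeR adjusted p = 0.954) and 1 gene of 16578, no member, was called (0.00603%, lower in HPN).

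The comparison of node metastases with HPN primaries asks which checkpoint genes differ once the tumour has spread to a lymph node. The Cdkn2a counts do not separate Ink4a from Arf, so they are not read as a level of the INK4 inhibitor. In the main fit Cdkn2a, Cdkn2b and cyclin D1 fell in the nodes, and no member rose. None of these 3 falls passed with the animal as a block. In a fit with the keratinocyte mean as a covariate and no block, these 3 falls passed. Cdkn2c and E2f1 fell there as well, by 1.02 and 1.29 on the log2 scale (edgeR adjusted p = 0.0397 and 0.0118), and Cdk6 rose by 2.21 (adjusted p = 0.00254). The share of all genes called in that fit is not given here. Over 24 alternative fits the count of all genes called ran from 1274 to 5743. Cdkn2a had a lowest, median and highest level of 5.58, 16.4 and 26.3 CPM in nodes, against 7.50, 48.2 and 76.3 CPM in HPN primaries. The ranges overlapped, with HPN primaries 1 and 4 inside the node range and the other 5 HPN primaries above every node. The log2 difference was -1.44 (SE 0.47, edgeR adjusted p = 0.0394). Cdkn2b, whose product p15Ink4b is an INK4 inhibitor known to be induced by TGF-beta, stood at 4.79, 6.93 and 17.0 CPM in nodes and at 9.74, 18.1 and 40.8 CPM in HPN primaries. Nodes 4 and 6 were the highest, at 17.0 and 11.4 CPM, and the groups overlapped through them, since HPN primary 3 stood at 9.74 CPM. The log2 difference was -1.26 (SE 0.36, edgeR adjusted p = 0.0225). Ccnd1 stood at 166, 286 and 489 CPM in nodes and at 224, 404 and 2195 CPM in HPN primaries. HPN primaries 2, 5 and 7 lay above all nodes, at 1002, 1189 and 2195 CPM, and the other 4 lay inside the node range. The log2 difference was -1.45 (SE 0.47, edgeR adjusted p = 0.0403). These 3 of 9 members stood lower against 9.81% of all 19152 genes called lower and 12.7% called higher, 22.5% in all.

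The other members did not pass the test between nodes and HPN primaries. E2f1 stood at 8.53, 15.9 and 21.8 CPM in nodes and at 12.5, 28.7 and 44.2 CPM in HPN primaries, a log2 difference of -0.88 (SE 0.31, edgeR adjusted p = 0.0527). Cdk4 stood at 64.8, 102 and 124 CPM in nodes and at 97.8, 132 and 151 CPM in HPN primaries, a log2 difference of -0.40 (SE 0.15, edgeR adjusted p = 0.0698). Both groups overlapped for each of these genes. Cdkn2c, which encodes the INK4 inhibitor p18Ink4c, differed by -0.66 on the log2 scale (SE 0.31, edgeR adjusted p = 0.138), with a median of 30.9 CPM in nodes and 51.1 CPM in HPN primaries. Cdk6 was the member furthest in the other direction, at 0.71 on the log2 scale (SE 0.46, edgeR adjusted p = 0.266), with a median of 34.7 CPM in nodes and 20.3 CPM in HPN primaries. Rb1 and Cdkn1b differed by 0.38 and 0.26 on the log2 scale (edgeR adjusted p = 0.204 and 0.364). The median log2 difference was -0.66 over the members and -0.08 over all genes.

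**Figure D2:**
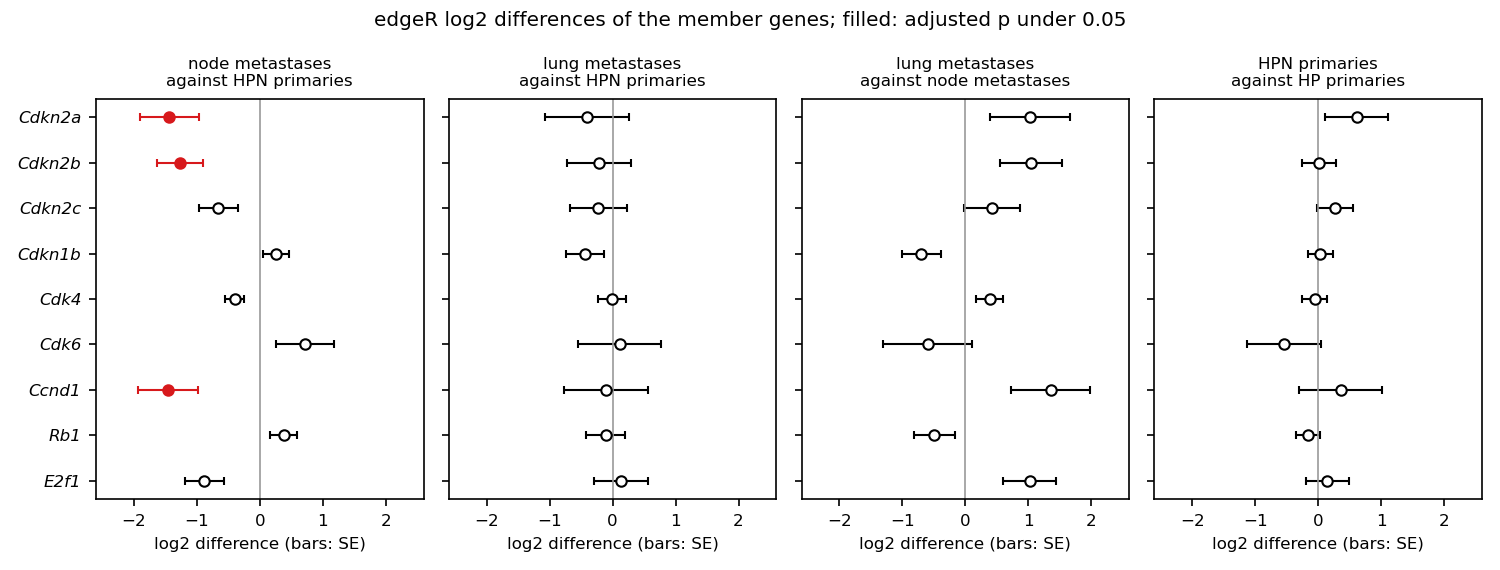
edgeR log2 differences (horizontal axis, bars are standard errors) of the 9 genes in 4 comparisons; a filled red point has an adjusted p under 0.05. Filled points stand only at Cdkn2a (-1.44), Cdkn2b (-1.26) and Ccnd1 (-1.45) in the comparison of nodes with HPN primaries.

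Title numbers 3 to 7 give a node and a primary that were read as the same animal, which the labels do not otherwise state, with 6 node libraries in all. Cdkn2a in the node was 0.505 times its primary in animal 3, 1.18 times in animal 4, 0.0853 times in animal 5, 0.482 times in animal 6, and 0.232 and 0.199 times in nodes 7a and 7b of animal 7. The node was thus lower in 5 of 6 libraries, and animal 4 was the exception. Nodes 7a and 7b are set against the same primary, so these 6 libraries stand for 5 animals only. Cdkn2b, Cdkn2c, Cdk4 and Ccnd1 were also lower in 5 of 6 node libraries, with animal 4 again the exception in each. E2f1 was lower in 6 of 6, at 0.231 to 0.822 times the primary. Cdk6 was higher in 5 of 6, at up to 10.4 times in node 7a, and 0.548 times its primary in animal 4. With the animal as a block the log2 difference was -1.49 for Cdkn2a, -1.21 for Cdkn2b and -1.37 for Ccnd1, with edgeR adjusted p of 0.107, 0.121 and 0.13, so no member was called, while 1274 genes (6.65%) were, 4.82% higher and 1.83% lower.

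**Figure D3:**
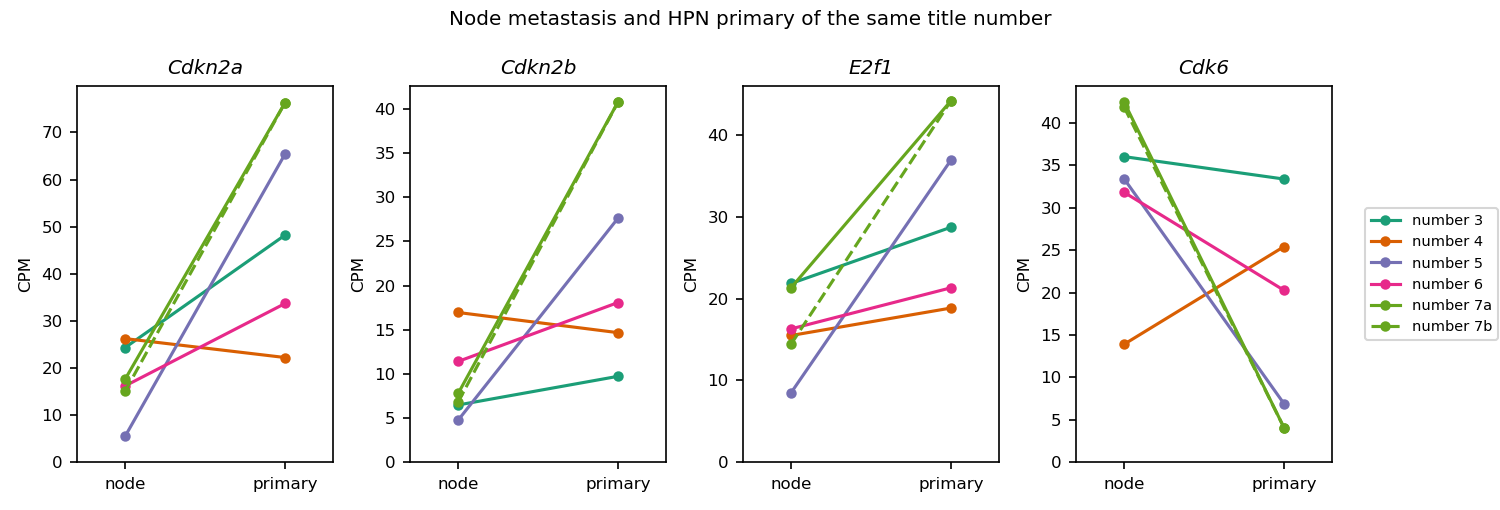
CPM (vertical axis, linear) of Cdkn2a, Cdkn2b, E2f1 and Cdk6 in a node metastasis (left) and the HPN primary of the same title number (right); each line is 1 node library, dashed for node 7b. For E2f1 all 6 lines lie lower at the node, and for Cdk6 only that of number 4 does, at 13.9 CPM in the node and 25.4 CPM in the primary.

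Several marker lists moved with the node comparison. All 10 B cell markers and all 10 T cell markers rose, and none was at 0 in all libraries of a group. The B cell markers summed to 235.5 to 2359 CPM in nodes and 1.29 to 12.2 CPM in HPN primaries, and the T cell markers to 109 to 708 CPM in nodes and 4.55 to 34.5 CPM in HPN primaries. Of 16 keratinocyte markers 15 fell, with sums of 46.5 to 129 CPM in nodes and 8.47 to 12600 CPM in HPN primaries. Of 6 skeletal muscle markers 5 fell (median log2 difference -7.87, against -6.93 for the keratinocyte markers), of 8 macrophage markers 2 rose and all 8 differences were positive, and of 6 fibroblast markers 1 fell. No melanocyte marker of 10 passed, but all 10 differences were negative, with a median of -0.70 beside -0.66 for the members. The melanocyte mean on the log2(CPM + 0.5) scale was 7.42 to 10.6 in nodes and 8.11 to 10.9 in HPN primaries. Node 5, the lowest library for Cdkn2a and Cdkn2b, had the lowest melanocyte mean and the highest B cell mean of all nodes, 7.42 and 7.77. Of all libraries it also had the fewest gene counts, 18870759, and the largest share of uniquely aligned reads outside gene features, 66.06%. The part of this in its low levels was not tested. In such bulk tissue fewer cells of a type and less RNA per cell cannot be told apart. With the melanocyte mean as a covariate, a setting chosen after seeing the data, the log2 difference was -0.63 for Cdkn2a (edgeR adjusted p = 0.134), -1.08 for Cdkn2b (adjusted p = 0.0459) and -0.78 for Ccnd1 (adjusted p = 0.282). With the keratinocyte mean as the covariate instead, 6 members were called, among them Cdk6, higher at 2.21 (edgeR adjusted p = 0.00254). Beyond these covariates the part of other cell types in the differences was not tested.

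The 3 calls rested on few libraries. Cdkn2a was no longer called without HPN primary 2, 3, 5 or 7 or node 5, 6, 7 or 8 (edgeR adjusted p = 0.0601 to 0.0921), Cdkn2b without node 3, 5, 7 or 8 (0.0514 to 0.0632), and Ccnd1 without HPN primary 2, 5 or 7 or node 3, 5, 6, 7 or 8 (0.0621 to 0.102). Among the libraries whose low-quality entry was 0 (4 nodes and 6 HPN primaries), the log2 difference was -1.09 for Cdkn2a, -0.86 for Cdkn2b and -1.13 for Ccnd1 (edgeR adjusted p = 0.232, 0.19 and 0.165). The remaining libraries hold 1 HPN primary, too few for a value. With that entry as a term Cdkn2a had an adjusted p of 0.0557.

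Around the members, 3 of 22 other tested G1 genes passed between nodes and HPN primaries, a smaller share than the 22.5% of all genes. Cdkn1a, which encodes the p53-induced inhibitor p21, fell by 1.39 on the log2 scale (SE 0.28, edgeR adjusted p = 0.00316). Rbl2, the Rb1 relative p130, rose by 0.42 (SE 0.11, adjusted p = 0.0166), and E2f2, an activating E2F factor, rose by 1.28 (SE 0.41, adjusted p = 0.0382). With the animal as a block the edgeR adjusted p was 0.0457 for Cdkn1a, 0.0929 for Rbl2 and 0.191 for E2f2. The calls of Cdkn1a and Rbl2 were kept whichever library was left out, and that of E2f2 was lost without HPN primary 2, 3, 4, 5 or 6 or node 5, 6, 7 or 8 (0.0589 to 0.0925). Of 30 E2F target genes for DNA replication, 1 passed, also a smaller share than over all genes, the thymidylate synthase gene Tyms, at -0.65 (SE 0.22, adjusted p = 0.0495), and 26 of the 30 differences were negative. The call of Tyms was lost in 11 of 13 fits that left out 1 sample (adjusted p = 0.0531 to 0.127), and kept only without HPN primary 1 or 4; with the block its adjusted p was 0.183. The median log2 difference was -0.21 over the other G1 genes and -0.24 over the replication genes. With the keratinocyte mean as a covariate, 6 of the other G1 genes and 6 of the replication genes were called.

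Of 14 genes known to regulate the Cdkn2a locus, 3 rose and 3 fell in nodes against HPN primaries, where 12.7% of all genes rose and 9.81% fell. The Polycomb gene Cbx7, known to repress the locus, rose by 1.68 on the log2 scale (SE 0.25, edgeR adjusted p = 0.000522), and it stayed called whichever library was left out and with the animal as a block (adjusted p = 0.023). The Polycomb subunit Eed and the Arf activator Dmtf1 rose by 0.47 and 0.55 (adjusted p = 0.0427 and 0.04). The histone demethylase gene Kdm6b fell by 0.57 (adjusted p = 0.0167), Cbx2 fell by 0.82 (adjusted p = 0.0461), and Hmga2, a chromatin protein gene, fell by 1.62 (adjusted p = 0.025). Kdm6b was kept whichever library was left out, whereas Eed, Dmtf1, Cbx2 and Hmga2 lost their calls in 10, 8, 9 and 5 of 13 such fits. With the block Kdm6b, Hmga2, Dmtf1, Eed and Cbx2 were no longer called (edgeR adjusted p = 0.0932, 0.123, 0.126, 0.149 and 0.222). E2f2 and Cbx7 moved with the B and T cell markers of the nodes, and the part of these cells in them was not tested. Mtap and Dmrta1, the neighbours of the locus, differed by -0.51 and -0.42 (adjusted p = 0.209 and 0.558). With the keratinocyte mean as a covariate Mtap was called, at -0.94 (edgeR adjusted p = 0.0377).

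Only 2 lung metastases were sequenced. Cdkn2a stood at 40.3 and 25.1 CPM in lung metastases 3 and 4, inside the HPN primaries' range, and Cdkn2b at 11.9 and 23.7 CPM. Ccnd1 stood at 786.5 and 749 CPM, above every node and below HPN primaries 2, 5 and 7. E2f1 was 45.6 CPM in lung metastasis 3 and 17.0 CPM in lung metastasis 4. Against HPN primaries, 0 of 9 members and 51 of 19152 genes (0.266%) passed in edgeR, 0.251% higher and 0.0157% lower. The log2 differences ran from -0.44 for Cdkn1b to 0.14 for E2f1, with SE up to 0.67, so changes of that size were not detectable here. Set against the primary of the same title number, lung metastases 3 and 4 had 1.95 and 1.87 times the Ccnd1, 1.22 and 1.62 times the Cdkn2b, and 0.771 and 0.678 times the Cdk6. Ccnd1 thus stood higher in both pairs, whereas its log2 difference was -0.10 without a block and 0.33 with it (edgeR adjusted p = 0.997 and 0.963). Against nodes, 0 of 9 members and 966 genes (5.04%) passed, 1.96% higher and 3.09% lower, with Ccnd1 at 1.35 (SE 0.63, edgeR adjusted p = 0.217), Cdkn2b at 1.05 (SE 0.49, adjusted p = 0.219), Cdkn2a at 1.03 (SE 0.63, adjusted p = 0.35) and E2f1 at 1.02 (SE 0.42, adjusted p = 0.167). Of the 9 member differences 6 were positive and 3 negative. The negative ones were Cdkn1b at -0.70 (SE 0.31, edgeR adjusted p = 0.197), Cdk6 at -0.60 (adjusted p = 0.641) and Rb1 at -0.49 (adjusted p = 0.387). All of these differences shared their samples with the comparison of nodes and HPN primaries. Among the other lists, the E2F partner gene Tfdp2 rose by 0.92 in lung metastases against nodes (edgeR adjusted p = 0.0377) and Cbx7 fell by 1.91 (adjusted p = 0.0285). Tfdp2 lost its call without lung metastasis 3 or 4 or node 5, 6, 7 or 8 (0.0674 to 0.204), and Cbx7 without either lung metastasis or node 7 or 8 (0.0511 to 0.148). With the animal as a block their adjusted p was 0.307 and 0.246. All 10 B cell markers and 9 of 10 T cell markers fell in lung metastases against nodes, and 5 of 5 alveolar markers tested rose, although only lung metastasis 4 had a high alveolar mean (9.54) and lung metastasis 3, at -0.42, lay inside the node range of -0.45 to 0.70.

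Among the 14 primaries, 6 of the 9 members moved with the keratinocyte content of the library, against 43.8% of 17914 genes tested. The mean of 16 keratinocyte markers (such as Krt5, Krt14 and Trp63) on the log2(CPM + 0.5) scale fell into 2 separate ranges, 5.58 to 9.79 in 8 primaries (HPN 1, 3, 4 and 6, HP 1, 3, 4 and 6) and -0.279 to 2.21 in 6 primaries (HPN 2, 5 and 7, HP 5, 7 and 9). In the 8 primaries of the upper range, Ccnd1 had a lowest, median and highest level of 87.7, 278 and 404 CPM. In the 6 of the lower range it stood at 1002, 1169 and 2195 CPM. Cdk6 ran the other way, at 20.3, 35.1 and 58.3 CPM in the upper range and 4.07, 7.78 and 15.8 CPM in the lower range. How many of all genes stand apart between the 2 ranges was not counted. Cdkn2a stood at 7.50, 15.7 and 48.2 CPM in the upper range and 47.5, 50.5 and 76.3 CPM in the lower range, and only HPN primary 3 reached into the lower-range values. E2f1 stood at 11.7, 17.7 and 28.7 CPM in the upper range and 27.8, 36.7 and 53.6 CPM in the lower range, with HPN primary 3 again the one that overlapped.

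A slope on the keratinocyte mean with genotype as a term, a test added after seeing the values, passed for 6 of 9 members in edgeR, against 43.8% of 17914 genes, 24.5% higher and 19.2% lower with the mean. Per log2 unit of the keratinocyte mean, Ccnd1 fell by 0.32 (SE 0.04, edgeR adjusted p = 2.25e-05), Cdkn2a fell by 0.24 (SE 0.04, adjusted p = 0.000132), E2f1 fell by 0.16 (SE 0.02, adjusted p = 9.62e-05), Cdkn2c fell by 0.13 (SE 0.02, adjusted p = 0.00026) and Cdk4 fell by 0.08 (SE 0.02, adjusted p = 0.00229). Cdk6 rose by 0.28 per unit (SE 0.04, adjusted p = 2.27e-05). Cdkn2b, Cdkn1b and Rb1 did not pass, with slopes of -0.06, -0.04 and -0.01 (adjusted p = 0.172, 0.228 and 0.695). These 6 calls were kept whichever library was left out. Since the samples form 2 separate ranges, the slope mostly sets one range against the other. Within the upper range 0 of 9 members and 1375 of 18511 genes (7.43%, 6.71% higher and 0.718% lower) passed, with Cdkn2a at -0.65 (SE 0.19, adjusted p = 0.0772) and Cdk6 at 0.31 (SE 0.09, adjusted p = 0.0927). Within the lower range 0 of 9 members and 0 of 16748 genes passed (548 genes and 0 members at an unadjusted p under 0.05).

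**Figure D4:**
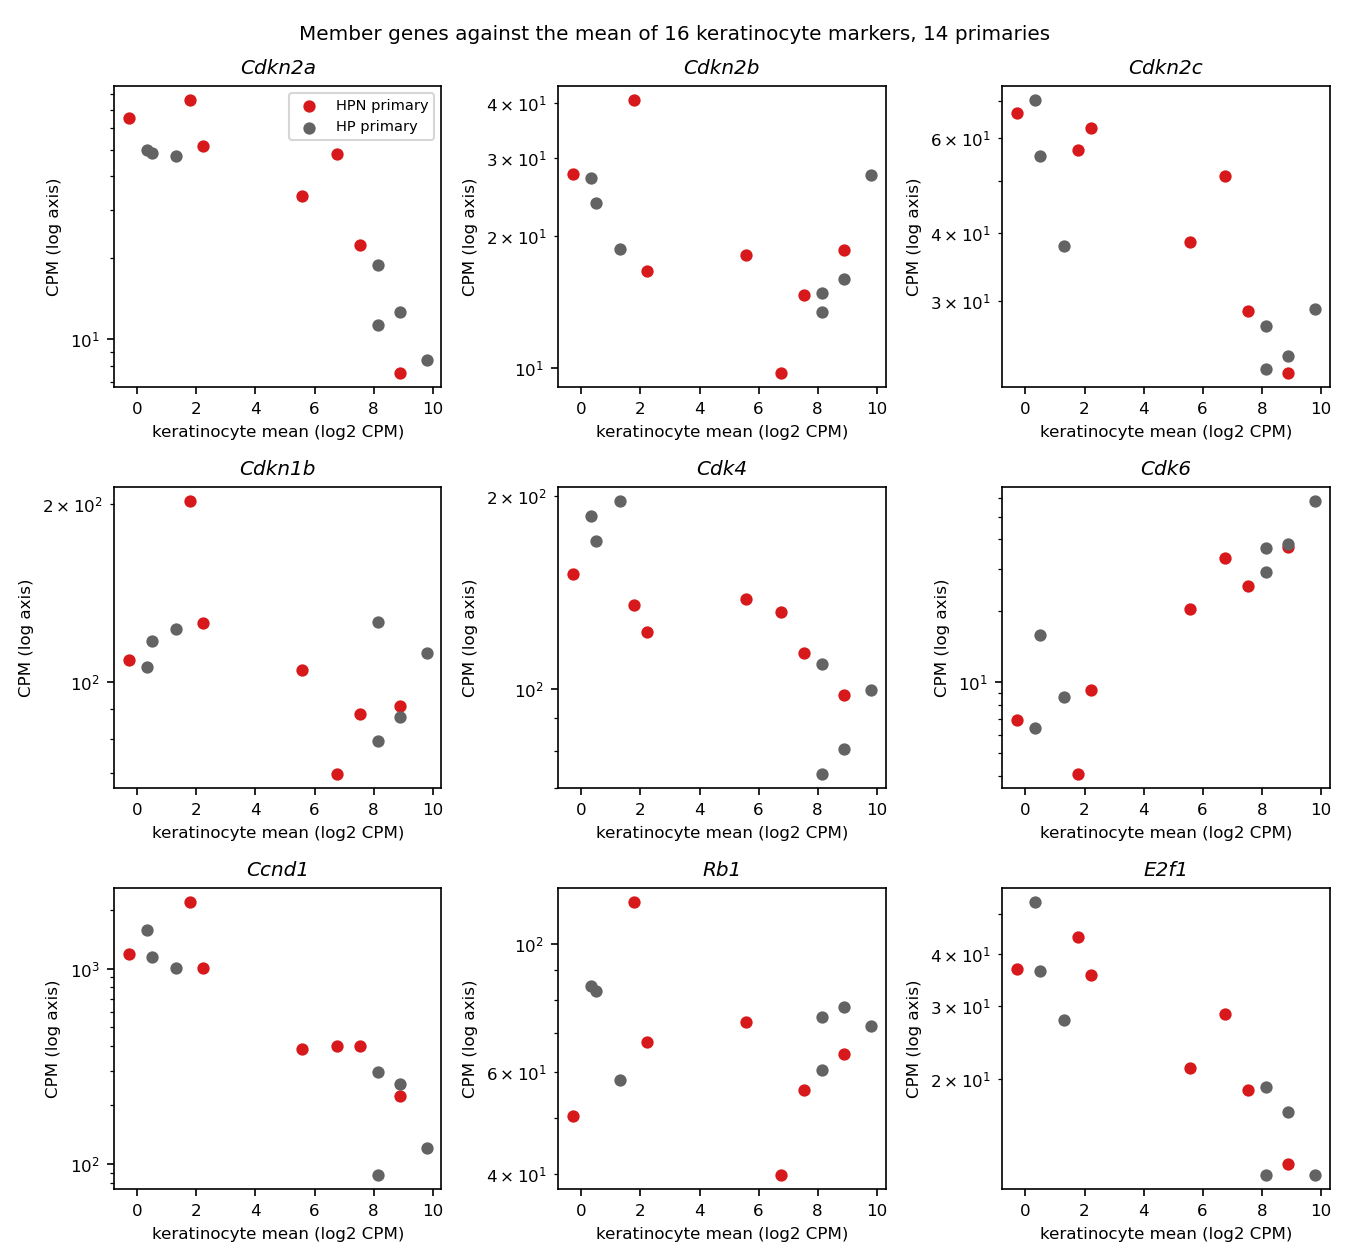
CPM of each of the 9 genes (vertical axis, log scale) against the mean of 16 keratinocyte markers (horizontal axis, log2(CPM + 0.5)) in 7 HPN (red) and 7 HP (grey) primaries. Ccnd1 and Cdkn2a stand lower and Cdk6 higher in the 8 primaries whose mean lies between 5.58 and 9.79, apart from Cdkn2a in HPN primary 3 at 48.2 CPM, and both genotypes occur in both ranges.

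Counts for other lists under the same slope are read against 24.5% of all genes higher and 19.2% lower. Of 30 replication genes, 28 fell with it, among them Pcna (-0.12), Ccna2 (-0.17), Cdk1 (-0.18) and Tk1 (-0.14), and none rose. Of 22 other G1 genes, 14 fell, among them E2f7 (-0.17), Rbl1 (-0.12) and Cdk2 (-0.17), and 2 rose, Fbxw7 (0.09), which targets cyclin E for degradation, and the inhibitor gene Cdkn1c (0.53). Of 14 regulators of Cdkn2a, 5 fell, with Ets1 (-0.20), an activator of Ink4a, and Ezh2 (-0.09) among them, and 2 rose, Id1 (0.32), an Ets antagonist, and Ets2 (0.15), so that 7 of 14 were called, close to the 43.8% of all genes. Mtap next to the locus fell (-0.12, edgeR adjusted p = 0.00636), and Dmrta1 did not pass (-0.16, adjusted p = 0.0682). Melanocyte markers fell for 7 of 10 and rose for 0, while all 10 T cell, all 6 fibroblast, all 6 skeletal muscle and 7 of 8 macrophage markers rose. The median slope was -0.08 over the members, -0.12 over the replication genes and -0.01 over all genes. Melanocyte markers, with a median slope of -0.18, thus mostly fell, as most called members did. Markers of fibroblasts, muscle, T cells and macrophages mostly rose. The keratinocyte markers define the mean, so their own rise was fixed in advance. The separate parts of these cell types cannot be told apart.

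The mean of the 30 replication genes, which E2F release switches on, was set against each member within each keratinocyte range, since over all 14 primaries the samples fall into separate clusters. The replication mean on the log2(CPM + 0.5) scale was 3.58 to 4.63 in the upper range and 4.79 to 5.61 in the lower range. How many of all genes follow this mean within a range was not counted. In the 8 primaries of the upper range, Cdk4 followed it with a Pearson r of 0.867 (exact permutation p = 0.00231, adjusted over 18 relations 0.0415) and a Spearman rho of 0.881 (exact p = 0.00724, adjusted 0.098). Without the 2 primaries farthest from the median of the replication mean, r was 0.745 over 6 samples. Ccnd1 and E2f1 had r of 0.805 and 0.787 there (exact permutation p = 0.00893 and 0.0129, adjusted 0.0774 for both) and rho of 0.81 and 0.85 (adjusted 0.098 for both). Without the 2 farthest, their r was 0.43 and 0.655. Cdkn2c had an r of 0.741 (exact permutation p = 0.042, adjusted 0.151), and 0.649 without the 2 farthest. Cdkn2a had an r of 0.653 and a rho of 0.738 (exact permutation p = 0.071 and 0.0458, adjusted 0.189 and 0.137). Cdkn1b ran the other way, with an r of -0.754 (exact permutation p = 0.028, adjusted 0.126), and -0.0822 without the 2 farthest. For Cdkn2b, Rb1 and Cdk6 the r was also negative, at -0.28, -0.214 and -0.0418. In the 6 primaries of the lower range, E2f1 had the highest r of the members, 0.783 (exact permutation p = 0.0736, adjusted 0.189), and Cdkn2a had -0.191 (exact permutation p = 0.686, adjusted 0.875), which turned to 0.723 over 4 samples without the 2 farthest. Rb1 had the highest rho of all 18 relations there, 0.943 (exact permutation p = 0.0167, adjusted 0.098), with an r of 0.697 (adjusted 0.272). Of the 18 relations only that of Cdk4 in the upper range passed for r, and none for rho. In the lower range Cdk4 had an r of 0.128 (exact permutation p = 0.803, adjusted 0.875) and a rho of 0.0286. Without the 2 farthest its r there was -0.761 over 4 samples, so the relation was not seen in both ranges.

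**Figure D5:**
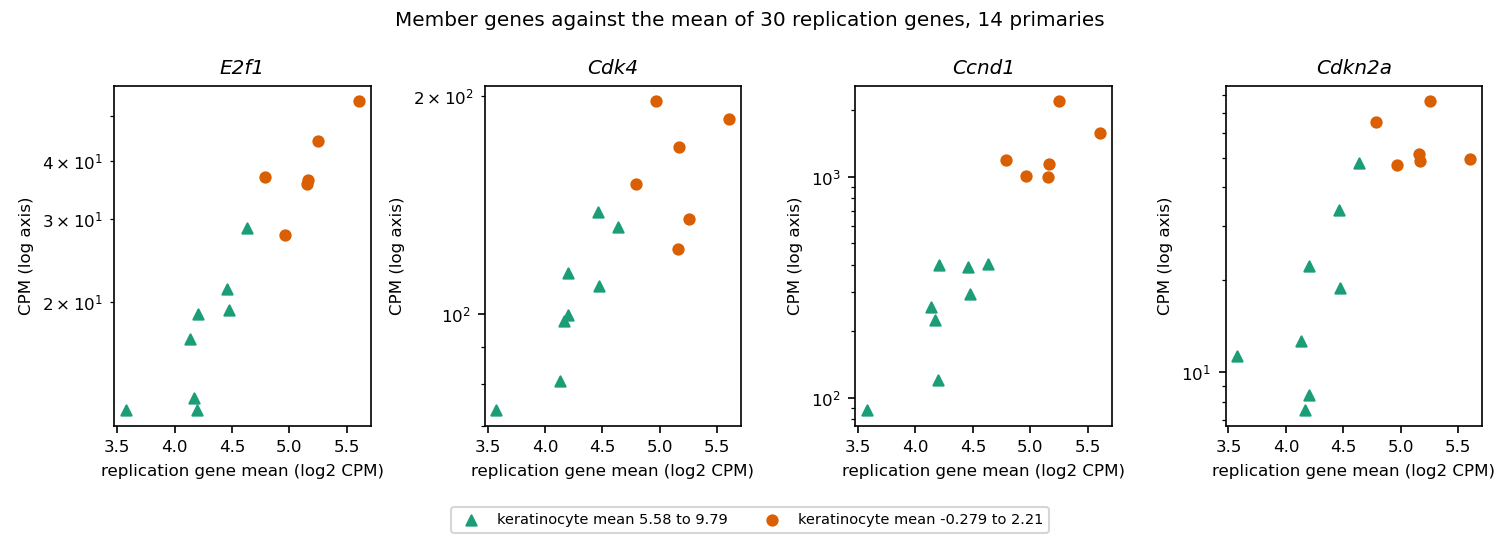
CPM of E2f1, Cdk4, Ccnd1 and Cdkn2a (vertical axis, log scale) against the mean of 30 replication genes (horizontal axis, log2(CPM + 0.5)) in 14 primaries; triangles are the 8 with a keratinocyte mean of 5.58 to 9.79 and circles the 6 with -0.279 to 2.21. The 2 kinds of sample do not overlap along the horizontal axis. Cdk4 rises with the replication mean among the triangles, while its r among the circles is 0.128.

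As a description over the 14 primaries, which share the 2 keratinocyte ranges, the genes most like Cdkn2a among 16578 by Pearson r of log2(CPM + 0.5) were Maged2 (0.981), Ddost (0.977), Fam173a (0.975), Tsta3 (0.974) and Syde1 (0.973). Those most like Cdkn2b were Setd5 (0.874), Psma4 (0.849), Erc1 (0.848), Hnrnpf (0.846) and Cebpz (0.845). The likeness was lower for Cdkn2b than for Cdkn2a, and none of these genes is on both lists.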

How the data were processed

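Total RNA of mouse melanomas was made into directional libraries, per the labels' protocols. The deposited values are whole-number counts per Ensembl gene, not normalized, and the authors' summary entries, 49.19 to 74.96% of all entries, were left out. Per the submitters' processing notes, bcl2fastq 1.8.4 and STAR 2.5.3a were used with build mm9; the counting tool, its strand setting and the annotation are not stated there or in the labels. Symbols, lengths and overlaps came from GENCODE vM21 for GRCm38 by identifier (87.45% matched); Cdkn2d and Flg were not matched. Differences were tested with glmQLFit (robust) and glmQLFTest of edgeR 4.0.16, R 4.3.3, after filterByExpr and TMM, with Benjamini-Hochberg adjustment over all genes and a threshold of 0.05, tested on simulated data. HPN primaries, nodes and lung metastases shared 1 fit, the 14 primaries another, and the keratinocyte slope its own. Alternatives were DESeq2 1.42.0 and those below. Correlations used exact permutation (scipy 1.17.1, Python 3.11.15). The members and lists were chosen with earlier results of these data known. Named genes are the members, up to 4 genes of a list by smallest p, and the 5 most like Cdkn2a and Cdkn2b; Cbx2, Eed and Cdkn1c complete counts and were chosen after their values were seen. No label says how independent the samples of a group are, and p-values reflect only their spread, which may be technical. Title numbers were read as animals from titles that share them; over 5 node and primary pairs the correlation of deviations from group means was -0.14 to 0.352, over 0.1 in 2.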

Additional observations from a re-analysis of the deposited data

Results flagged for a closer look

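Within groups of 4 to 10 samples, 3 of 27 sets of values held a sample set apart by Dixon's test, which chance gives in about 1 group in 20. Cdkn1b stood at 203 CPM in HPN primary 7, against 126 CPM in the next HPN primary. Rb1 stood at 118 CPM in the same HPN primary 7, against 73.2 CPM in the next. Cdk6 stood at 13.9 CPM in node 4, against 31.8 CPM in the next lowest node sample. Node 4 also had the lowest B cell and T cell means of the nodes, 4.51 and 2.96 on the log2(CPM + 0.5) scale, and their part in its Cdk6 level was not tested.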

How the results depend on the processing

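Depth was ample for all 9 genes, and small groups, wide spread within groups and mixed cell types limit the comparisons; 2 lung metastases detect large differences only. Calls in the node comparison depend on the settings, and the causes were not tested. The 3 members called there, all lower, became 5 with DESeq2 or with nodes 7a and 7b kept apart, 6 with the keratinocyte mean as a covariate (5 lower, and Cdk6 higher at 2.21, adjusted p = 0.00254), 1 with no filter, with all 4 groups in 1 fit or with the melanocyte mean as a covariate, and 0 without the libraries that have low-quality reads. With a replicate block, 0 members and 1274 genes were called between nodes and HPN primaries, 0 genes in both lung comparisons, and 1 gene between HPN and HP primaries, where numbers mark different animals (correlation of deviations -0.0371 to 0.649, over 0.1 for 5 of 6 numbers). For nodes against HPN primaries, genes called numbered 1542 without the low-quality libraries and 1274 to 5743 over all 24 alternatives. Leaving out 1 sample at a time gave 2731 to 5333 genes and 0 to 5 members.

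For lung metastases against HPN primaries (51 genes), the count was 358 with DESeq2, 138 with no filter, 12 with a filter over 1 CPM, 89 with all 4 groups in 1 fit, 134 with the keratinocyte and 83 with the melanocyte covariate, 1 without the low-quality libraries and 0 to 393 with 1 sample left out. For lung metastases against nodes (966 genes), it was 2467 with DESeq2, 263 with the low-quality entry as a term, 1917 with the keratinocyte covariate, under which 1 member passed (Ccnd1), 1848 with the melanocyte covariate, 0 without the low-quality libraries and 0 to 2017 with 1 sample left out. Within the lower keratinocyte range the slope called 0 members and 0 genes, and within the upper range 0 members and 1375 genes.

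Of 72 sign changes of log2 values, 9 were of called values, all slopes within 1 keratinocyte range, and 0 were called after the change. Within the lower range the slope was 0.019 for Ccnd1, -0.012 for Fbxw7, 0.028 for Pcna, 0.077 for Ccna2, 0.080 for Cdk1, -0.44 for Id1, 0.039 for Mtap, 0.11 for Ezh2, 0.21 for Cdkn1b and 0.21 for Rb1; within the upper range it was 0.028 for Ezh2, 0.0042 for Cdkn1b, 0.18 for Cdkn2b and 0.015 for Rb1. The slope of Rb1 was 0.0061 with the low-quality term and -0.028 to 0.0050 with 1 primary left out. The r with the replication mean was planned over all 14 primaries, which form separate clusters. There it was 0.822 for Cdkn2a, 0.484 for Cdkn2b, 0.368 for Cdkn1b and 0.356 for Rb1. Within a range this r changed sign, to -0.191 for Cdkn2a in the lower range, and to -0.28 for Cdkn2b, -0.754 for Cdkn1b and -0.214 for Rb1 in the upper range.

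Between HPN and HP primaries, signs changed for Cdk4 (0.10) and Cdkn1b (-0.040) with the replicate block; Cdk4 (0.023) and Rb1 (0.011) with the low-quality term; Cdkn2b (-0.063) and Cdkn1b (-0.013) with the keratinocyte covariate; Cdkn2b (-0.024), Cdkn1b (-0.016), Cdk6 (0.10), Ccnd1 (-0.017) and E2f1 (-0.14) with the melanocyte covariate; and Cdkn1b (-0.19) and Cdk4 (0.13) without the low-quality libraries. With 1 primary left out, Cdkn2b ranged from -0.22 to 0.13, Cdkn1b from -0.15 to 0.12, Cdk4 from -0.15 to 0.053 and Ccnd1 from -0.087 to 0.74. Between nodes and HPN primaries, Cdkn1b was -0.017 with the keratinocyte covariate and Dmrta1 0.060 with the melanocyte covariate.

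Between lung metastases and HPN primaries, signs changed for Ccnd1 (0.33), Rb1 (0.35) and E2f1 (-0.026) with the replicate block, Ccnd1 (0.21) and Rb1 (0.0026) with the low-quality term, E2f1 (-0.15) with the keratinocyte covariate, Cdkn2a (0.058), Cdk4 (0.059) and Ccnd1 (0.26) with the melanocyte covariate, and Cdkn2b (0.020), Cdk6 (-0.067), Ccnd1 (0.35) and Rb1 (0.075) without the low-quality libraries. With 1 sample left out, Ccnd1 ranged from -0.26 to 0.35, Cdk4 from -0.26 to 0.23, Cdk6 from -0.17 to 0.40, Cdkn2b from -0.81 to 0.21, Cdkn2c from -1.08 to 0.33, E2f1 from -0.71 to 0.69 and Rb1 from -0.20 to 0.074. Between lung metastases and nodes, Cdkn2c ranged from -0.43 to 0.98. A lung metastasis left alone was assumed to vary like the other groups. The melanocyte covariate, the fits without the low-quality libraries and those within a keratinocyte range were chosen after seeing the data.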
